A study of Mus musculus with 4 samples.

Results

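Germ cells use a set of genes that most other cells keep silent. The 34 such genes described here were picked by name, with earlier results of these data known. Of them, 14 act in the piRNA pathway and 12 in meiotic chromosome structure and recombination. A further 5 act in germ cell specification, RNA regulation and the entry into meiosis, and 3 are other germ cell genes. Every one of the 34 had at least 1 probe set annotated with its symbol alone, among 19938 genes measured, and Hormad1 had 2 probe sets, which were averaged. Expression was measured with 1 Affymetrix array per sample. The samples were the induced pluripotent stem (iPS) cell lines 492B4 and 178B5, made by reprogramming somatic cells, v6.5 as the line of embryonic stem (ES) cells, and mouse embryonic fibroblasts (MEF). Both iPS lines and the MEF had a mixed genetic background of DBA/2, C57BL/6 and 129S4, while the ES line was an F1 between 129 and C57BL/6, so strain and cell origin cannot be told apart between iPS and ES. The MEF were cultured in medium with serum. The 3 pluripotent lines were cultured in ES cell medium on mitomycin-C-treated SNL feeder cells, a fibroblast line, and their RNA can therefore hold feeder RNA. Each line was measured once, and the labels name no repeat culture.

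In the germ line, PIWI proteins bind short RNAs called piRNAs that recognise transposon transcripts. The piRNAs are made and amplified in granules, the nuage, which are held together by Tudor domain proteins and RNA helicases. In meiosis, cohesin complexes with germline subunits organise each chromosome around an axis, DNA breaks are made and repaired by recombination, and the synaptonemal complex zips homologous chromosomes together. In mouse somatic cells many of these genes are held silent by DNA methylation of their CpG-rich promoters, and in mouse ES cells a Polycomb complex that contains MGA, MAX and E2F6 occupies a number of them.

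All values below are on a log2 scale, with the log base taken as 2. In the deposited table each probe set was centred on its median over the 4 arrays, so a value says how far a sample lies from the middle of the 4 samples and not how strongly a gene is expressed. A gene near 0 on every array may be silent in all samples or equally active in all. Genes count as called, and as having risen or fallen, where limma's test gave an adjusted p below 0.05 with a difference of 1 log2 or more. The labelled cell types were checked against marker genes. There, 10 of 10 pluripotency markers were called higher in the pluripotent lines than in MEF (median difference 6.06 log2) and 8 of 10 fibroblast markers were called lower (median -4.34 log2). In bulk RNA, fewer cells of a type and less RNA per cell cannot be told apart.

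The first comparison asked which germ cell genes separate the 3 pluripotent lines from MEF. As the genes were chosen with earlier results of these data known, their shares are a description and not an independent test. Of the 34 genes 13 rose, a larger share than the 7.9% of all 19938 genes called higher. Only Tdrd7 fell, while 9.71% of all genes were called lower. The median difference over the 34 genes was 1.32 log2, beside -0.10 log2 over all genes, and 30 of the 34 lay above 0. On the MEF array 27 of the 34 genes had their lowest value, and the MEF array held the lowest value for 30.1% of all genes. The rises were shared between the piRNA genes (6 of 14) and the meiotic chromosome genes (6 of 12), with Tex19.1 among the remaining 8. With the arrays centred on 12 reference genes, every difference from MEF moved by -0.28 log2. Then 12 of the 34 genes were called higher and 1 lower, against 5.53% higher and 14.6% lower among all genes, and 27 lay above 0.

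**Figure D1:**
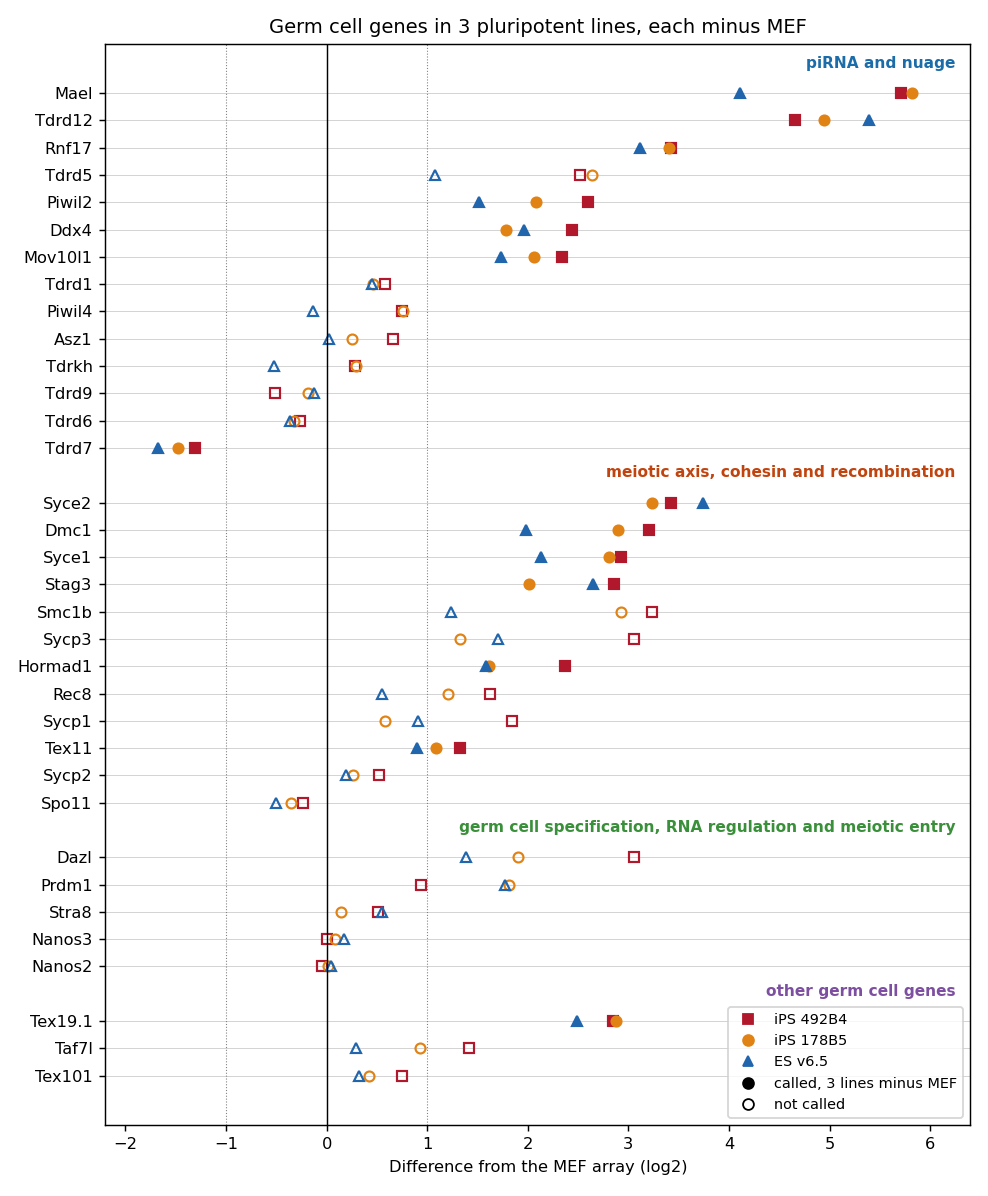
Difference of each pluripotent line from the MEF array (log2) for the 34 germ cell genes, by role and ordered by the mean of the 3 lines. Squares stand for iPS 492B4, circles for iPS 178B5 and triangles for ES v6.5, filled where the 3 lines together were called against MEF. Dotted lines mark 1 log2 on either side of MEF. Mael and Tdrd12 lie farthest above MEF, Tdrd7 is called lower, and Smc1b, Sycp3 and Dazl lie well above MEF with lines far apart.

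Among the piRNA genes, Mael and Tdrd12 rose most. Mael, which acts in the nuage and is needed for transposon silencing in mouse testis, stood at 0.80 on iPS 492B4, 0.91 on iPS 178B5 and -0.80 on ES, against -4.91 on MEF. All 3 lines lay far above MEF, and ES lay below both iPS lines. The difference was 5.21 ± 0.96 log2 (SD, n = 3 lines; limma adjusted p = 0.0155), or 37.1-fold. Tdrd12, a Tudor protein with a helicase domain that takes part in piRNA amplification, stood at -0.15, 0.15 and 0.59 on iPS 492B4, iPS 178B5 and ES, against -4.80 on MEF. Here ES was the highest sample, and the difference from MEF was 5.0 ± 0.37 log2 (adjusted p = 0.00548). Rnf17, a Tudor and RING finger protein of male germ cells, stood at 0.16, 0.15 and -0.15 on the same lines, against -3.26 on MEF. The 3 lines were close together and its difference from MEF was 3.31 ± 0.17 log2 (adjusted p = 0.00548).

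The promoters of the 2 genes that rose most are shown as an example of how differently such genes are built. Each is the RefSeq window of GRCm38.p6 from 250 bases before to 50 bases after the annotated start site, on the gene's own strand: Mael at chr1:166238695-166238994 on the minus strand and Tdrd12 at chr7:35537666-35537965 on the minus strand. Capitals mark CACGTG (an E-box, a motif that MAX-containing dimers bind) and TCCCGC or its reverse complement GCGGGA (an E2F-type motif).
Mael: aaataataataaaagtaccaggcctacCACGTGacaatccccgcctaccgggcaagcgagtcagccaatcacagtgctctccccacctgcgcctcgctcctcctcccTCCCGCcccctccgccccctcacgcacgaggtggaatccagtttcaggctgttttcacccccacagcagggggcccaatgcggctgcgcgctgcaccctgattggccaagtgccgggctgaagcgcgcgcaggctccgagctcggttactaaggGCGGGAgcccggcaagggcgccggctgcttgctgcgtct
Tdrd12: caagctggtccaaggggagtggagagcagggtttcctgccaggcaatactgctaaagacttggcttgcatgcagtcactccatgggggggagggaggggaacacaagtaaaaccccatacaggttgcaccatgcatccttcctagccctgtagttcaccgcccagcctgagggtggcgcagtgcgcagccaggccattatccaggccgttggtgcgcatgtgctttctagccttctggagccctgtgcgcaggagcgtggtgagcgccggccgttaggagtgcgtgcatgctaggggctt
The Mael window holds 1 E-box, 2 E2F-type motifs and 24 CG dinucleotides. The Tdrd12 window holds 0 of either motif and 11 CG dinucleotides.

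A further 3 piRNA genes rose by about the same amount. Piwil2, one of the PIWI proteins that load piRNAs, stood at 0.80 on iPS 492B4, 0.28 on iPS 178B5 and -0.28 on ES, against -1.80 on MEF. Its difference was 2.06 ± 0.54 log2 (adjusted p = 0.0369). Ddx4, the Vasa helicase that marks germ cells, stood at 0.57, -0.09 and 0.09 on these lines, against -1.87 on MEF, a difference of 2.06 ± 0.34 log2 (adjusted p = 0.0153). Mov10l1 encodes the helicase that hands precursors to the piRNA machinery. It stood at 0.43, 0.17 and -0.17 on these lines, against -1.90 on MEF, a difference of 2.05 ± 0.30 log2 (adjusted p = 0.0128). For all 3 genes every line lay above MEF.

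Tdrd5, a nuage protein needed for retrotransposon silencing in mouse testis, lay above MEF in every line but was not called, as the lines were far apart. It stood at 0.72 on iPS 492B4, 0.84 on iPS 178B5 and -0.72 on ES, against -1.80 on MEF, a difference of 2.08 ± 0.87 log2 (adjusted p = 0.104). Tdrd7, a Tudor protein that also acts in the lens, was the gene that fell: it stood at 0.09, -0.09 and -0.28 on these lines, against 1.39 on MEF. Its difference was -1.48 ± 0.19 log2 (adjusted p = 0.0129), and every line lay below MEF.

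The other 6 piRNA genes were not called. Tdrd1, whose product binds PIWI proteins, differed by 0.50 log2 (adjusted p = 0.0764), with all lines above MEF. Piwil4, the nuclear PIWI protein that directs DNA methylation in mouse fetal testis, differed by 0.46 log2, and Tdrd9, its helicase partner, by -0.27 log2. Asz1, an anchor of nuage at mitochondria, differed by 0.31 log2, Tdrkh, a scaffold for piRNA trimming, by 0.02 log2 and Tdrd6, of the later chromatoid body, by -0.32 log2. Adjusted p for these 5 lay between 0.176 and 0.98. Thus the 2 PIWI genes among the 34 stood apart by value, Piwil2 at 2.06 log2 and Piwil4 at 0.46 log2, a contrast that was not tested.

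Among the 12 meiotic chromosome genes, Syce1 and Syce2, of the central element of the synaptonemal complex, rose. Syce2 stood at 0.09 on iPS 492B4, -0.09 on iPS 178B5 and 0.41 on ES, against -3.33 on MEF, and Syce1 at 0.46, 0.34 and -0.34 on these lines, against -2.47 on MEF. Their differences were 3.47 ± 0.26 log2 (adjusted p = 0.00548) and 2.62 ± 0.43 log2 (adjusted p = 0.014). Tex12, a central element component outside the 34, was not called (0.49 log2, adjusted p = 0.446). Sycp1, Sycp2 and Sycp3, of the same complex, were not called either. Sycp1, the transverse filament, stood at 1.10, -0.17 and 0.17 on these lines, against -0.75 on MEF (1.11 ± 0.66 log2, adjusted p = 0.21). Sycp3, an axis protein, stood at 1.54, -0.19 and 0.19, against -1.52 on MEF (2.03 ± 0.91 log2, adjusted p = 0.12). In both, iPS 492B4 was far above the other lines, and every line lay above MEF. Sycp2, the axis partner of Sycp3, differed by 0.33 log2 (adjusted p = 0.284).

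Of the 3 germline cohesin subunits among the 34 genes, Stag3 rose. It stood at 0.53 on iPS 492B4, -0.32 on iPS 178B5 and 0.32 on ES, against -2.33 on MEF, a difference of 2.51 ± 0.44 log2 (adjusted p = 0.0158). Smc1b stood at 1.15, 0.85 and -0.85 on these lines, against -2.08 on MEF, and differed by 2.47 log2 with the largest SD of the 34 genes, 1.08 (adjusted p = 0.112). Both iPS lines lay well above ES in this gene. Rec8 stood at 0.74, 0.33 and -0.33, against -0.88 on MEF (1.13 ± 0.54 log2, adjusted p = 0.145). Rad21l, a germline cohesin subunit outside the 34, was not called (0.14 log2, adjusted p = 0.556).

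The recombination genes were split. Dmc1, the meiotic strand exchange protein, stood at 0.77 on iPS 492B4, 0.46 on iPS 178B5 and -0.46 on ES, against -2.44 on MEF, and rose by 2.70 ± 0.64 log2 (adjusted p = 0.0277). Hormad1, an axis protein that promotes break formation, stood at 0.77, 0.02 and -0.02 on these lines, against -1.60 on MEF, and rose by 1.86 ± 0.44 log2 (adjusted p = 0.0307). Its 2 probe sets differed from MEF by 1.96 and 1.75 log2, and whether both match the same locus could not be checked. Tex11, an X-linked gene that promotes crossovers, rose by 1.10 ± 0.21 log2 (adjusted p = 0.0283), close to the fold minimum: it stood at 0.33, 0.09 and -0.09, against -0.99 on MEF. Spo11, the enzyme that makes meiotic breaks, was at 0.06, -0.06 and -0.22, against 0.29 on MEF, and was not called (-0.36 log2, adjusted p = 0.207).

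None of the 5 regulators of germ cell fate and meiotic entry was called against MEF in limma's test, and 2 of them lay more than 1 log2 above it. Dazl, an RNA-binding protein needed for germ cell development, stood at 1.41 on iPS 492B4, 0.26 on iPS 178B5 and -0.26 on ES, against -1.65 on MEF (2.12 ± 0.85 log2, adjusted p = 0.0958). Prdm1, the repressor that specifies primordial germ cells in the mouse embryo and is also used in other tissues, stood at -0.42, 0.46 and 0.42, against -1.35 on MEF (1.51 ± 0.49 log2, adjusted p = 0.0642). Here iPS 492B4 was the lowest of the lines. Stra8, which starts meiosis in response to retinoic acid, differed by 0.40 log2 (adjusted p = 0.266). Nanos2 and Nanos3, RNA-binding proteins that maintain germ cells, differed by less than 0.1 log2, with ranges over all 4 arrays of 0.10 and 0.18. Together with Tdrd6 they were the 3 genes whose range over the 4 arrays was under 0.5 log2.

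The 3 other germ cell genes all lay above MEF in every line. Tex19.1, which restrains retrotransposons in germ cells and placenta and is also known in ES cells, stood at 0.18 on iPS 492B4, 0.21 on iPS 178B5 and -0.18 on ES, against -2.67 on MEF. It rose by 2.74 ± 0.22 log2 (adjusted p = 0.00596). Taf7l, a germ cell relative of a general transcription factor subunit, stood at 0.80, 0.32 and -0.32, against -0.61 on MEF (0.88 ± 0.56 log2, adjusted p = 0.243). Tex101, a germ cell surface protein, differed by 0.50 log2 (adjusted p = 0.184).

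The calls rest on the spread among 3 lines, and the model takes the single MEF array to have the same spread. Without iPS 178B5, 6 of the 34 genes were called, all higher (all genes: 3.07% higher, 3.73% lower): Ddx4, Tdrd12, Rnf17, Syce2, Stag3 and Tex19.1. These 6 were also called without iPS 492B4, when 15 were higher and 1 lower (all genes: 7.27% and 8.72%), and without ES, when 18 were higher and 1 lower (all genes: 9.94% and 11.2%). Sycp3 (1.52 log2, adjusted p = 0.0364), Prdm1 (1.79 log2, 0.0209) and Dazl (1.65 log2, 0.0426) were called without iPS 492B4. Without iPS 178B5 the adjusted p was 0.0501 for Mael, 0.0565 for Mov10l1, 0.0548 for Syce1, 0.0634 for Tdrd7, 0.075 for Hormad1, 0.0848 for Dmc1, 0.105 for Piwil2 and 0.106 for Tex11. Tex11 also stood at 0.99 log2 without iPS 492B4 and at 0.82 log2 with reference centring, under the fold minimum.

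With iPS and ES fitted as separate groups, 18 of the 34 genes were called higher and 1 lower in iPS than in MEF (9.94% of all genes higher, 11.2% lower). In ES 13 were called higher and 1 lower than in MEF (9.14% and 10.9% of all genes). With reference centring the counts were 16 and 1 in iPS, against 6.94% and 16.1% of all genes, and 11 and 1 in ES, against 6.53% and 15.7%. Tdrd5 differed from MEF by 2.58 log2 in iPS and 1.08 log2 in ES (adjusted p = 0.00265 and 0.0209), and Smc1b by 3.08 and 1.24 log2 (adjusted p = 0.00292 and 0.0271). Both were called in both groups here and in neither when the 3 lines were pooled. Dazl (2.48 log2, adjusted p = 0.0315), Rec8 (1.42 log2, 0.0169), Taf7l (1.17 log2, 0.0332), Hormad1 (1.99 log2, 0.0217) and Tex11 (1.21 log2, 0.013) were called in iPS. In ES they stood at 1.39, 0.55, 0.30, 1.58 and 0.90 log2 and were not called. These 2 comparisons share the MEF array, and the iPS fit has 1 residual degree of freedom.

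The comparison of iPS with ES tested that difference itself. In limma's test 0 of the 34 genes were called, as were 0% of all genes. At an unadjusted p under 0.05, 10 of the 34 were higher and 1 lower in iPS, beside 7.51% higher and 7.93% lower among all genes. By value, 23 of the 34 genes lay above ES in both iPS lines and 6 lay below it in both, while among all genes 31.0% lay above and 47.7% below. The median over the 34 genes was 0.30 log2 for iPS minus ES, against -0.06 log2 over all genes.

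Smc1b, Mael and Tdrd5 lay at least 1 log2 above ES in both iPS lines, as did 0.958% of all genes. Smc1b was 1.84 ± 0.19 log2 above ES (SE; adjusted p = 0.0996), Mael 1.66 ± 0.14 log2 (adjusted p = 0.0879) and Tdrd5 1.5 ± 0.15 log2 (adjusted p = 0.0975). Dazl and Dmc1 averaged 1.09 and 1.07 log2 above ES (adjusted p = 0.411 and 0.172), with the iPS lines farther apart in Dazl. Tdrd12 (-0.59 log2), Syce2 (-0.41 log2) and Prdm1 (-0.40 log2) were the lowest. Fibroblast markers had a median of -1.14 on iPS 492B4 and -0.87 on iPS 178B5, against 0.76 on ES, and primitive endoderm markers were higher in iPS for 10 of 10 (median 1.41 log2). The part of feeder or other cells in these differences was not tested.

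**Figure D2:**
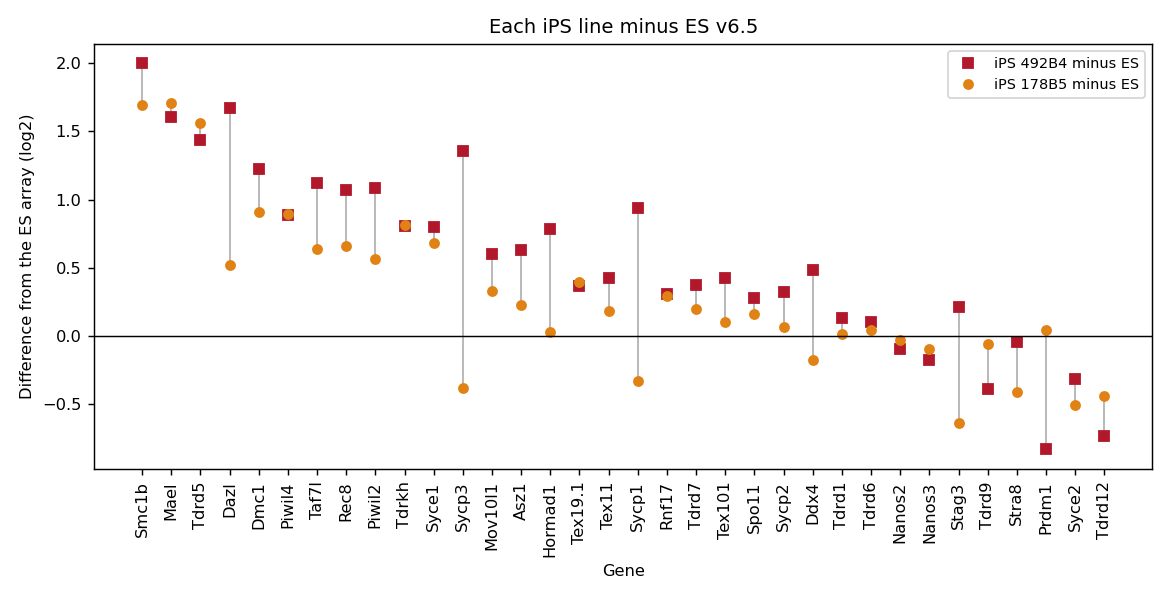
Difference of each iPS line from the ES array (log2) for the 34 germ cell genes, ordered by the mean of the 2 lines. Squares stand for iPS 492B4 and circles for iPS 178B5, and a grey line joins the 2 values of a gene. Smc1b, Mael and Tdrd5 lie at the left with both lines at least 1 log2 above ES, whereas Sycp3 and Sycp1 lie above ES in iPS 492B4 and below it in iPS 178B5.

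The 2 iPS lines were compared by value, since 1 array per line allows no test. The 12 meiotic chromosome genes among the 34 were all higher in iPS 492B4 than in iPS 178B5 (median 0.31 log2). Of 33 other measured meiosis genes, 21 were higher in iPS 492B4 (median 0.10 log2). The 14 piRNA genes had a median of 0.03 log2, with 8 above 0. Over all genes the median was -0.02 log2, with 9324 of 19938 above 0. At least 1 log2 apart were 3 of the 34 genes, all higher in iPS 492B4, as were 0.291% of all genes. At 0.5 log2 the counts were 7 higher and 1 lower, beside 3.66% and 3.3% of all genes.

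Sycp3 was 1.73 log2 higher in iPS 492B4 (3.32-fold) and ranked 4 among the 19938 genes for this difference. Sycp1 was 1.27 log2 higher (2.41-fold, rank 19) and Dazl 1.15 log2 higher (2.22-fold, rank 31). In iPS 178B5, Sycp3 and Sycp1 lay 0.38 and 0.33 log2 below ES. Stag3 (0.85 log2), Hormad1 (0.75 log2), Ddx4 (0.66 log2) and Piwil2 (0.52 log2) were also higher in iPS 492B4, and the 2 probe sets of Hormad1 differed by 0.68 and 0.83 log2. Sycp2 and Smc1b, of the same structures, were 0.26 and 0.31 log2 higher. Prdm1 stood at -0.87 log2, lower in iPS 492B4. The genes with the largest differences from MEF, Mael and Tdrd12, stood at -0.10 and -0.29 log2.

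Other marker lists also differed between the lines. In iPS 492B4, 10 of 10 primitive endoderm markers were lower than in iPS 178B5 (median -0.65 log2), as were 9 of 10 fibroblast markers (median -0.33 log2) and 11 of 12 markers of Sertoli and other gonadal somatic cells (median -0.19 log2). Of 10 pluripotency markers 8 were higher (median 0.15 log2). The largest difference in the fibroblast list and in the pluripotency list went against the list's median. These were Pdgfrb (1.24 log2) and Zfp42 (-0.75 log2), named after their values were seen. Pdgfra is on both the endoderm and the fibroblast list, and Gata4 on both the endoderm and the gonadal list. Their part in the differences above was not tested.

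**Figure D3:**
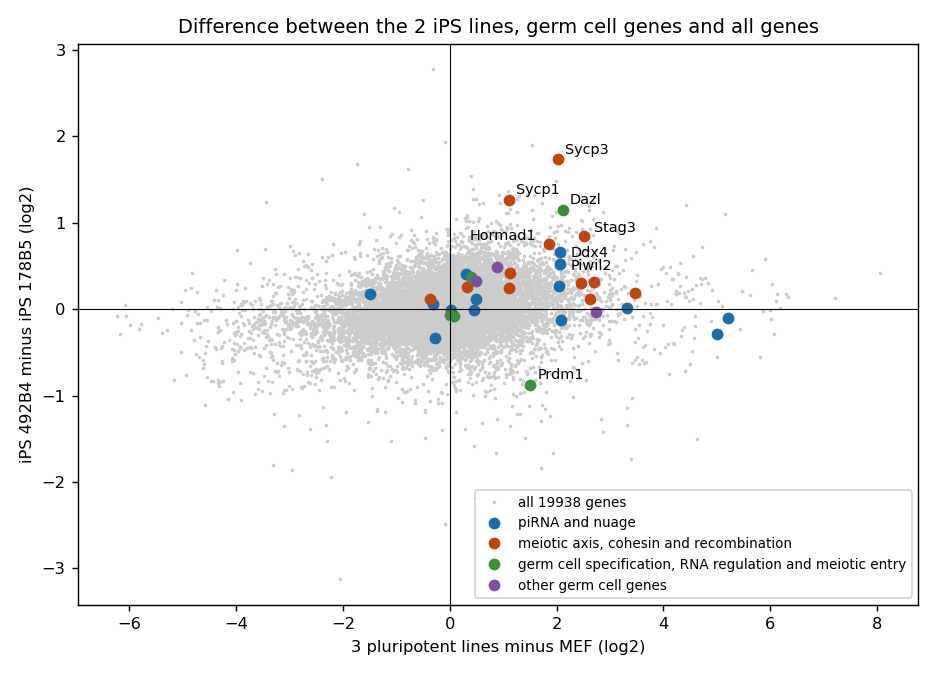
Difference between the iPS lines, 492B4 minus 178B5 (log2, vertical axis), against the difference of the 3 pluripotent lines from MEF (log2, horizontal axis). Grey points are all 19938 genes and coloured points the 34 germ cell genes by role, named where the iPS lines differ by at least 0.5 log2. Sycp3, Sycp1 and Dazl lie above 1 log2 on the vertical axis, and Prdm1 lies at -0.87.

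Promoter sequence was not used to choose the genes. RefSeq windows of 300 bases were found for 29 of the 34 genes, 37 windows in all, and those of Piwil2, Rnf17, Tdrd6, Spo11 and Tex11 were not analysed here. Both strands were searched for CACGTG, which reads the same on either strand, and for TCCCGC. The 2 motifs overlapped nowhere in these windows. An E-box was found in 11 of the 29 genes (37.9%), against 9.50% of the 15614 measured genes with a window. An E2F-type motif was found in 12 (41.4%), against 30.5%, and both motifs in the same window in 7 (24.1%), against 3.35%. Over all 32851 windows the shares were 7.15% for the E-box, 20.0% for the E2F-type motif and 1.99% for both. Both motifs contain CG, and the genes with a window held a median of 19 CG dinucleotides, against 16 for the measured genes with a window (counting the window richest in CG) and 7 over all windows. Among windows with at least 15 CG, 48.0% of the 25 windows of these genes held an E-box, against 11.3% of all 11378 such windows, 56% held an E2F-type motif, against 45.4%, and 32.0% held both motifs, against 5.04%. Hormad1, Syce2, Tdrd1 and Tdrd7 each count with 2 of these 25 windows. Those of Hormad1 overlap almost wholly and those of Tdrd1 and Syce2 in part. The motifs of Hormad1 and the E-box of Tdrd1 are therefore counted in both windows of their gene.

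The 7 genes with both motifs were Mael, Ddx4, Sycp1, Sycp3, Syce2, Stag3 and Hormad1. Of these, 5 were called higher against MEF, beside 7.9% of all genes. Among the 34 genes, 10 with a window were called higher and 5 of those held both motifs. Of the 18 with a window that were not called, 2 held both, a contrast that was not tested. Of the 6 genes that were at least 0.5 log2 higher in iPS 492B4 and have a window, 5 held both motifs. Among the 23 other genes with a window, 2 did. Over all genes with a window, 4.47% of those at least 0.5 log2 higher in iPS 492B4 held both motifs. The share was 2.92% of those at least 0.5 log2 lower and 3.35% of all measured genes. A link between the motifs and the difference between the iPS lines was not tested. The windows of the 5 genes are printed here with that of Dazl, the remaining gene of the 6. Dazl has 28 CG dinucleotides and neither motif. Sycp3 lies at chr10:88459337-88459636 on the plus strand, Sycp1 at chr3:102936051-102936350 on the minus strand and Stag3 at chr5:138280259-138280558 on the plus strand. Hormad1 lies at chr3:95559427-95559726 on the plus strand, Ddx4 at chr13:112652261-112652560 on the minus strand and Dazl at chr17:50293571-50293870 on the minus strand. Capitals again mark the 2 motifs.
Sycp3: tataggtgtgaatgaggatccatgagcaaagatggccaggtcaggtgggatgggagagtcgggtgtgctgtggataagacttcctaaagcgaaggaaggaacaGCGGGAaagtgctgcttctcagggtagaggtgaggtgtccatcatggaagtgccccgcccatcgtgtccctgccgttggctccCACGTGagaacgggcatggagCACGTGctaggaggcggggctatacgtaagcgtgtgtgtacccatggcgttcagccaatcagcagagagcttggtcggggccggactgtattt
Sycp1: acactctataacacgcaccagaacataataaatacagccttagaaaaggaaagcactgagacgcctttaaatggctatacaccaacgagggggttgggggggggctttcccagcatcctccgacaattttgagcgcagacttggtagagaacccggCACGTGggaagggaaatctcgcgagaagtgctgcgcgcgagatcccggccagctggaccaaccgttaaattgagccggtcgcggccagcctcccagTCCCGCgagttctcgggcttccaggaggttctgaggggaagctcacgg
Stag3: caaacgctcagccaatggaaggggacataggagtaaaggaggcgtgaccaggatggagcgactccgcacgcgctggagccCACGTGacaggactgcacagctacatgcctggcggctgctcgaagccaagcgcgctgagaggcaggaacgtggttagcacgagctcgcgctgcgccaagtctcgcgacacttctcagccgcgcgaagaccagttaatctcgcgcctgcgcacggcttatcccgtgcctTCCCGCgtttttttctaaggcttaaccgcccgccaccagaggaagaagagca
Hormad1: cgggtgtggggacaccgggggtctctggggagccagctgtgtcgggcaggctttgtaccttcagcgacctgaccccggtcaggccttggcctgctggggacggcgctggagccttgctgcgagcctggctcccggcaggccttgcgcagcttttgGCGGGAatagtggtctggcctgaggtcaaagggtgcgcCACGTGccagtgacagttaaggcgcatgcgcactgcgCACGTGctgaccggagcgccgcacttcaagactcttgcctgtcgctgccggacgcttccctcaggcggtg
Ddx4: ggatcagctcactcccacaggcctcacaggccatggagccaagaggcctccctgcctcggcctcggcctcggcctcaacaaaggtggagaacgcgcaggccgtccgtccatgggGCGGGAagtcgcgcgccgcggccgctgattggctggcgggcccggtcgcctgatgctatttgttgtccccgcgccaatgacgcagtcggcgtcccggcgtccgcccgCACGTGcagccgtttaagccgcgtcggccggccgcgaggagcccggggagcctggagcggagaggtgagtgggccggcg
Dazl: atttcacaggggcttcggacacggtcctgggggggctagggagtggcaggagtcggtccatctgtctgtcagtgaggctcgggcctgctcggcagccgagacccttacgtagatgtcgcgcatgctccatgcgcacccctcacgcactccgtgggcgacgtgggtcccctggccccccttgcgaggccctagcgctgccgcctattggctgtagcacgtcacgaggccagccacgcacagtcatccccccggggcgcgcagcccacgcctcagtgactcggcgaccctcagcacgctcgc
Sycp3 and Hormad1 each hold 2 E-boxes, which begin at -64 and -43 from the start site in Sycp3 and at -57 and -20 in Hormad1, while Stag3, Sycp1 and Ddx4 hold 1 each. A match says only that the letters are present, and binding was not measured here.

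**Figure D4:**
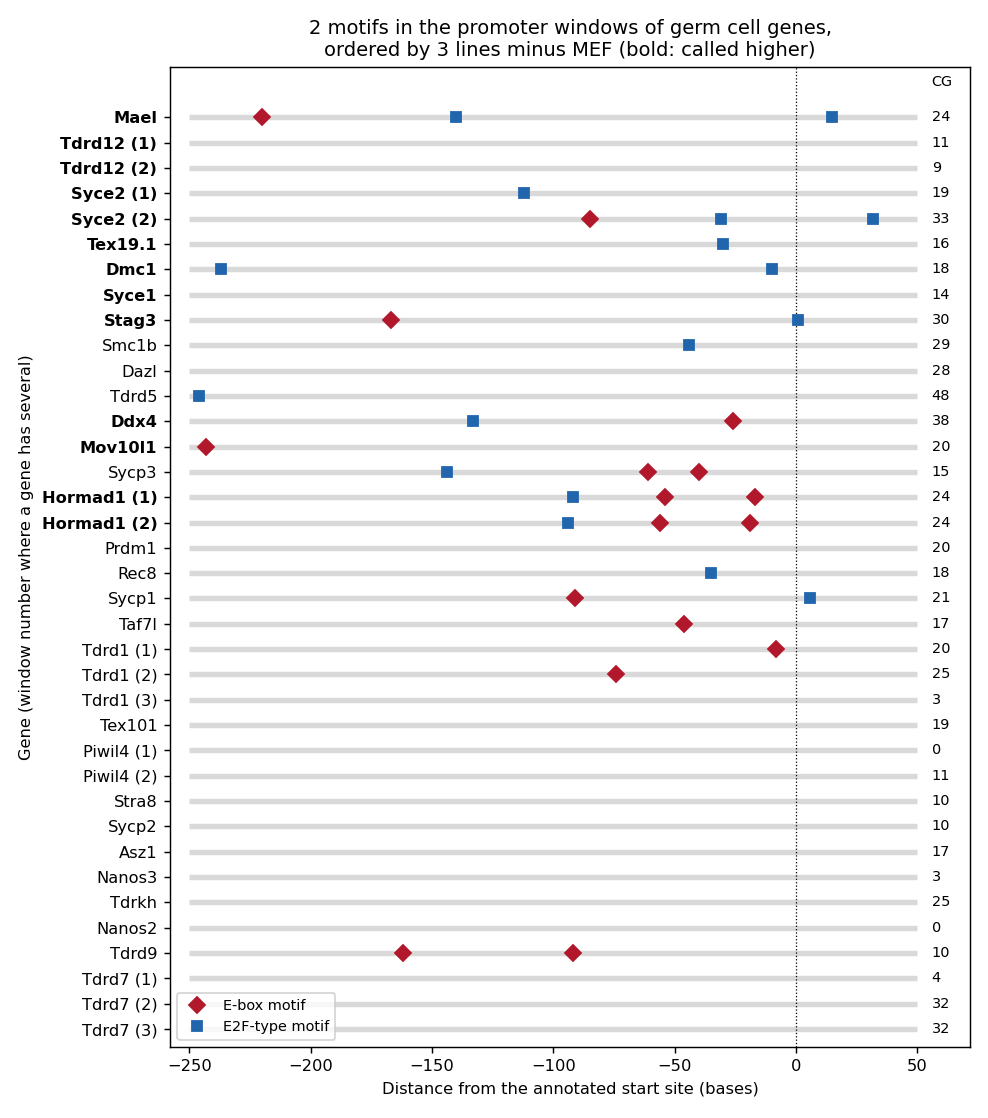
Centres of the E-box motif (diamonds) and the E2F-type motif (squares) in the promoter windows of 29 germ cell genes, against distance from the annotated start site in bases, with the number of CG dinucleotides at the right. Genes run from the largest to the smallest difference between the 3 lines and MEF, with names in bold where the gene was called higher. Hormad1, Sycp3, Ddx4, Stag3, Sycp1, Mael and Syce2 carry both motifs in 1 window, and Tdrd12, Syce1 and Dazl carry neither.

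Other genes of the same pathways, listed with earlier results of these data known, were also counted, and their counts stand beside the 7.9% of all genes called higher and the 9.71% called lower. Of 18 other measured genes of piRNA biogenesis and transposon control 6 rose and 0 fell against MEF (median 1.00 log2), among them Morc1 (3.78 log2), needed for transposon silencing in male germ cells, and Pnldc1 (3.16 log2), which trims piRNAs. Of 33 other meiosis genes 7 rose and 0 fell (median 0.93 log2). Tex14, which keeps bridges open between germ cells, rose by 2.73 log2, and Brca2, a recombination gene that dividing somatic cells also use, by 1.95 log2. Also called were Sgo2a (2.03 log2), Psmc3ip (1.78 log2), Smc3 (1.77 log2), Trip13 (1.70 log2) and Topbp1 (1.22 log2), named after their values were seen. The list is not limited to genes that act in meiosis alone. Of 28 genes of germ cell identity 14 rose and 1 fell (median 1.18 log2), led by Sall4 (4.57 log2), Zfp42 (4.10 log2) and Lin28a (4.08 log2), which are also pluripotency genes. Of 27 genes of egg and sperm differentiation 3 rose, a share near that of all genes: Odf2 (1.62 log2), Tuba3a (1.59 log2) and Ldhc (1.52 log2), with a list median of -0.14 log2.

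Of 28 listed factors that act on the silencing of germline genes in mouse cells 14 rose and 1 fell in the pluripotent lines, with a median of 0.91 log2. Among all genes 7.9% were called higher and 9.71% lower. This list too was chosen with earlier results of these data known. The DNA methylation genes Dnmt3l (6.04 log2) and Dnmt3b (3.52 log2) rose, as did Pcgf6 (2.60 log2) of the Polycomb complex that contains MGA. The list also holds Tet1 (4.48 log2), which oxidises methylcytosine. E2f6, the E2F member of that Polycomb complex, was the gene that fell (-1.24 log2, adjusted p = 0.0135). Among its partners, L3mbtl2 (2.56 log2) and Mga (1.07 log2) rose, and Max (-0.28 log2) was not called. Other factors on the list went both ways. Wdr5 (1.49 log2) and Rybp (1.23 log2) rose, while Yaf2 (-1.17 log2) and Ring1 (-0.77 log2) lay below MEF but were not called. These partners and other factors were named after their values were seen. Between the iPS lines all 28 differed by less than 0.5 log2, from -0.35 to 0.30 log2, while just 6.96% of all genes were at least 0.5 log2 apart.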

How the data were processed

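Total RNA of 4 samples was hybridised to 1-colour Affymetrix arrays, 1 array each. The authors deposited 1 table of log2 values (the base is taken, not stated) for 28853 probe sets. Per the submitters' processing notes the values came from GCRMA (version not given in sources used here), which corrects background and normalizes between arrays. In the deposited table the median of every probe set over the 4 arrays was 0 within 1e-06, so it holds differences and no levels. No depth applies, and the number of arrays limits the precision. No batch is given, and 0 columns lay outside the 4 samples.

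Probe sets with 1 gene symbol in the platform annotation (21789) were averaged into 19938 genes; 1621 with several symbols and 5443 with none were left out. Tests were limma's moderated ones (limma 3.58.1, R 4.3.3), and p-values were adjusted by Benjamini-Hochberg across the 19938 genes. One fit set the 3 lines against MEF (2 residual degrees of freedom). Another had 3 groups (1 residual degree of freedom), with the lone arrays assumed to vary like the iPS lines. Separate lines stand as replicates, so the p-values reflect how far these lines differ and not repeat cultures. The scripts were tested on simulated data. Alternatives covered scaling, probe set choice, the prior, the fold minimum and each line left out. A filter on dim probes was not possible without levels. Genes were named by rule: each of the 34, and at most 4 called genes in each direction per other list, besides Rad21l, Tex12 and those stated to be named after their values were seen. The members and lists were chosen with earlier results of these data known. Promoters came from RefSeq windows of GRCm38.p6, searched with Python 3.11.15.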

Additional observations from a re-analysis of the deposited data

Results flagged for a closer look

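For 2 of the 34 genes, both of the piRNA pathway, the iPS lines lay on one side of MEF and ES on the other. This was a smaller share than the 11.7% of all genes with that pattern. Neither gene was called against MEF, in iPS or in ES, and all these differences lay under the fold minimum of 1 log2. Piwil4 was 0.75 and 0.76 log2 above MEF in iPS 492B4 and iPS 178B5 and stood at -0.13 log2 from MEF in ES, so that iPS minus ES was 0.89 log2 (limma adjusted p = 0.151, unadjusted p = 0.00289). Tdrkh was 0.28 and 0.29 log2 above MEF in the same iPS lines and stood at -0.52 log2 from MEF in ES, with iPS minus ES at 0.81 log2 (adjusted p = 0.165, unadjusted p = 0.00409). Neither difference between iPS and ES passed the adjustment, and both comparisons use the same MEF array. With reference centring Tdrkh stood at -0.01 and 0.02 log2 from MEF in iPS 492B4 and iPS 178B5 and at -0.80 log2 in ES. Piwil4 stood at 0.45, 0.49 and -0.41 log2 on the same lines. Under that setting 1 of the 34 genes had such opposite signs, again a smaller share than the 6.88% of all genes.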

How the results depend on the processing

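The number of the 34 genes called between the pluripotent lines and MEF was 14 and ranged from 6 to 19 with 1 line left out, the lowest without iPS 178B5 and the highest without ES, while the number over all genes was 3512 and ranged from 1357 to 4216. Each such fit has 1 residual degree of freedom. The median difference of the 34 genes from MEF ranged from 1.26 to 1.40 log2 with 1 line left out, and was 1.04 log2 under reference centring and 1.39 log2 when array medians were made equal. Under the settings that keep all 4 arrays (2 scalings, 2 probe set rules, a robust prior, no fold minimum) the single call that changed was that of Tex11, lost under reference centring, apart from Hormad1, which the rule of 1 probe set per gene leaves out. The all-gene calls were 1576 higher and 1936 lower, against 1102 and 2920 under reference centring and 1700 and 1730 with equal medians. Between the iPS lines 3 genes were at least 1 log2 apart, and 8 at 0.5 log2. No result changed direction among those called. For iPS minus ES, 0 of the 34 genes were called under any scaling run, while 55 of all genes were under reference centring and 44 with equal medians. No paired analysis was possible because the labels give no replicate numbers and MEF and ES have 1 array each. Without levels, signal over background could not be judged.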

Other observations

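Meiosis genes outside the 34 also stood apart between the iPS lines, named here after their values were seen. Of 33 such genes 4 were at least 1 log2 higher in iPS 492B4 than in iPS 178B5 and 1 was at least 1 log2 lower, beside 0.291% and 0.321% of all genes. Rec114, which acts with Spo11 in break formation, stood at 1.51 on iPS 492B4 and 0.03 on iPS 178B5. Meiob, a single-stranded DNA binding protein of meiotic recombination, stood at 1.87 and 0.56. Cntd1, a crossover factor, stood at 1.84 and 0.64, and Ccna1, the germ cell A-type cyclin, at 1.58 and 0.35. Ccnb1ip1, a crossover regulator, stood at -0.63 on iPS 492B4 and 0.63 on iPS 178B5. Meioc, which keeps germ cells in meiotic prophase, stood at 1.21 and 1.12 on the iPS lines and -1.12 on ES, against -3.66 on MEF. Its difference from MEF was 4.06 log2 and was not called (limma adjusted p = 0.057), and iPS minus ES was 2.29 log2. In the list of 27 egg and sperm genes 0 were apart by 0.5 log2, with differences from -0.29 to 0.48 log2, beside 6.96% of all genes.

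The 2 promoter motifs were also counted over all genes that differed between the iPS lines. Of 559 genes with a window that were at least 0.5 log2 higher in iPS 492B4, 62 held an E-box (11.1%) and 25 held both motifs in 1 window (4.47%). Of 479 genes that were at least 0.5 log2 lower, 56 held an E-box (11.7%) and 14 held both (2.92%). At 1 log2, 4 of 45 higher genes held both motifs (8.89%) and 1 of 38 lower genes did (2.63%). Over all measured genes with a window the shares were 9.50% and 3.35%. These shares are a description and were not tested.

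Zp3, an egg coat gene, stood at 0.12 on iPS 492B4, -0.12 on iPS 178B5 and 1.48 on ES, against -1.94 on MEF, and was not called against MEF (adjusted p = 0.0711). Its iPS minus ES value was -1.48 log2. The other egg coat genes Zp1 and Zp2 differed from MEF by -0.37 and -0.16 log2, and these genes too were named after their values were seen.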
